A study of Mus musculus with 2 samples.

Results

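The insulin-like growth factor (IGF) system was described in 10 mouse genes, which are the 2 ligand genes *Igf1* and *Igf2*, the 2 receptor genes *Igf1r* and *Igf2r*, and the 6 binding protein genes *Igfbp2* to *Igfbp7*. They are a set of named genes out of the 55450 genes of the reference transcripts, and *Igfbp1*, which had no listed tag, was not among them. Of the 10 genes, 9 had at least 1 listed tag that matched no other gene, as did 14450 genes of the whole reference. The counts came from digital gene expression (DGE) tag profiling, in which each polyadenylated transcript is cut by *Nla*III at the sequence CATG near its 3′ end and is counted by the 21 bases that start there. In principle a transcript gives 1 tag whatever its length, so a count scaled to 1000000 clean tags (TPM) can be set side by side between genes without a length correction, provided that the transcript has a usable CATG.

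GC-1spg is a line that was made with the plasmid pSV3-neo from type B spermatogonia of a mouse of 10 days. The GC-2spd (ts) line comes from spermatocytes of a mouse of 6 weeks and carries SV40 large T antigen. Both were grown in DMEM with 10% serum and 1.5 g/L sodium bicarbonate, and each is represented by 1 library, so no replicate checks any difference and each test sets 1 library against the other, not 1 cell type against the other. The plasmid pSV3-neo itself carries the SV40 early region, which encodes large T antigen. Age of the source mouse, cell type and the separate transformation of each line all differ between the lines and cannot be told apart.

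IGF-1 and IGF-2 are secreted peptides that resemble proinsulin and signal through IGF1R, a receptor tyrosine kinase that works through IRS adaptors, PI3K and Akt, and through Ras. IGF2R, the cation-independent mannose 6-phosphate receptor, has no kinase and carries IGF-2 to lysosomes. The binding proteins hold the ligands outside the cell, extend their life and limit or deliver them to the receptor. In the testis the ligands are made mainly by somatic cells, and the pathway is known for its part in Sertoli cell proliferation and in germ cell survival.

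Clean tags numbered 5072149 for GC-1spg and 4726808 for GC-2spd (ts). No tag with a single copy was listed, and 1 copy was worth 0.197 TPM and 0.212 TPM, respectively. Over all genes, 1684 were called higher and 1133 lower in GC-2spd (ts), so that 59.8% of the calls were higher. Under TMM scaling, which shifted every log2 ratio by -0.17, 8.94% of genes were called higher and 9.99% lower, and 47.2% of the calls were higher. By tags of 1 gene only, 11 of 12 germ cell markers were unlisted in both libraries, *Ddx4* and *Dazl* among them, and the remaining one, *Uchl1*, had 329 GC-1spg tags and 66 GC-2spd (ts) tags. With a sense match taken before an antisense match, *Sycp3* had 2 and 0 tags and *Gfra1* 3 and 11. Sertoli cell markers were listed for 6 of 8 genes, with a summed level of 313 TPM in GC-1spg against 97.3 TPM in GC-2spd (ts), and without *Fshr* and *Rhox5* in either. That sum was carried by *Wt1* (620 and 0 tags) and *Clu* (902 and 262), which were called lower, whereas *Gata4* (29 and 138) was called higher. The 2 listed of 6 Leydig cell markers summed to 0.789 and 1.06 TPM, with *Cyp17a1*, *Hsd3b1*, *Lhcgr* and *Insl3* at 0. The 5 markers of peritubular myoid cells summed to 13 and 122 TPM. That sum was carried by *Acta2* (50 and 555 tags), which was called higher, whereas *Des* (11 and 4) was not called. *Tagln* had 0 and 3 tags, but 5 and 219 with a sense match taken first, and was then called higher. The 6 listed of 8 fibroblast markers summed to 2350 and 764 TPM, with *Thy1* and *Lum* at 0. The fibroblast sum was carried by *Col1a1* (10465 and 2425 tags) and *Dcn* (710 and 2), which were called lower. In contrast, *Col3a1* (50 and 120) and *Pdgfrb* (0 and 84) were called higher. With 0.5 tags added to both counts, the median log2 ratio of the 6 was 0.29. These levels differed between the same libraries as the genes below, and their part in the results was not tested.

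The tags that carried most of each count are shown here with the CATG in capitals. They show which transcript end a count comes from and which genes it can belong to. The *Igf2* tag is shared with *Gm49394* and the first *Igfbp7* tag with *Polr2b*. Positions are on the mouse genome GRCm38 and refer to the tag itself.
*Igf2*: CATGcattttctggcaaaatc
*Igf1r*, site at the 3′ end: CATGgattaagttaaataaaa
*Igf1r*, site far from the 3′ end: CATGggcctctgcaaacctta
*Igf2r*: CATGcacaggtccccgagtgc
*Igfbp2*: CATGtatttatatttggaaag
*Igfbp3*: CATGcgctgtacagagctttc
*Igfbp4*: CATGaagtcaccaggatgact
*Igfbp6*: CATGctgctaatgctgttgtt
*Igfbp7*, site shared with *Polr2b*: CATGtagctttaaacaaaaca
*Igfbp7*, site of its own: CATGagcctctgtagctaaag
All of these tags lay in a 3′ UTR except that of *Igfbp6*, which lay in the coding part of exon 1.
The *Igf2* tag covered chr7:142650833-142650853 on the minus strand, in exon 4.
The *Igf1r* tags covered chr7:68233634-68233654 and chr7:68226645-68226665 on the plus strand, both in exon 21.
The *Igf2r* tag covered chr17:12683076-12683096 on the minus strand, in exon 48.
The *Igfbp2* tag covered chr1:72852259-72852279 on the plus strand, in exon 4, and the *Igfbp3* tag chr11:7206242-7206262 on the minus strand, in exon 5.
The *Igfbp4* tag covered chr11:99052426-99052446 on the plus strand, in exon 4, and the *Igfbp6* tag chr15:102144583-102144603 on the plus strand.
The *Igfbp7* tags covered chr5:77349266-77349286 and chr5:77349449-77349469 on the minus strand, both in exon 6.

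Of the 10 genes, 3 were called higher in GC-2spd (ts), namely *Igf1*, *Igfbp2* and *Igfbp7*, where 11.7% of all genes tested were. Another 2, *Igfbp3* and *Igfbp4*, were called lower, where 7.84% of all genes were. A call needed a false discovery rate (FDR) of at most 0.001 in the two-sided Audic-Claverie test, adjusted over all 14450 genes, and a log2 ratio of at least 1 in size, where 0.01 TPM stood in for a gene with no listed tag. Together 5 of 9 listed genes were called, against 19.5% of all genes. *Igf1r*, *Igf2r*, *Igfbp5* and *Igfbp6* were not called, and *Igf2* had no tag that was its alone. When a biological coefficient of variation (BCV) of 0.4 between cultures was assumed in place of counting error alone, *Igf1*, *Igfbp2* and *Igfbp7* were no longer called, whereas *Igfbp3* and *Igfbp4* were. At that setting 108 of all 14450 genes were called higher and 136 lower.

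**Figure D1:**
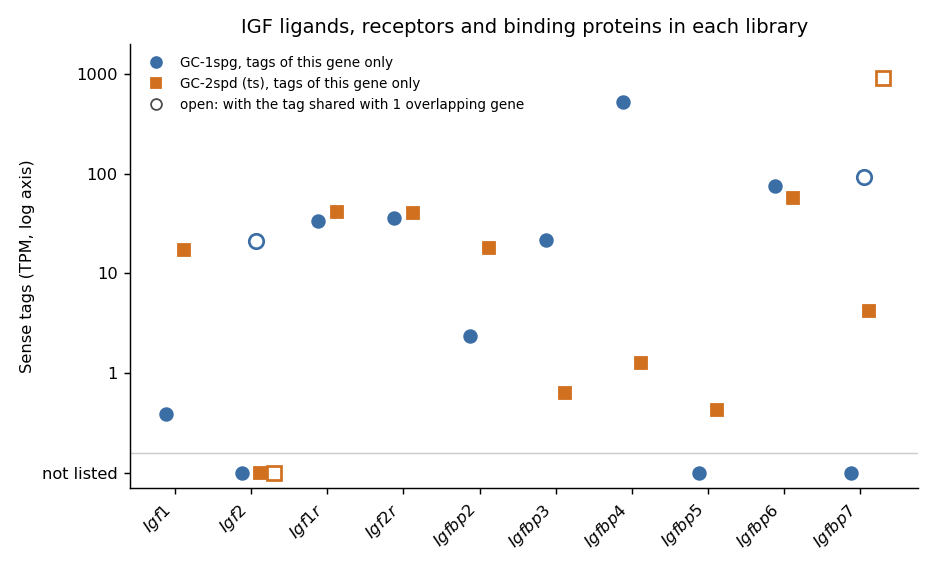
Level of each gene in each library in TPM on a log axis, with circles for GC-1spg and squares for GC-2spd (ts); filled points count tags of that gene only, and open points add the tag that *Igf2* shares with *Gm49394* or *Igfbp7* with *Polr2b*. The points of each receptor and of *Igfbp6* lie close together, whereas *Igfbp4* fell from 521 TPM in GC-1spg to 1.27 TPM in GC-2spd (ts).

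*Igf1*, the main growth hormone dependent ligand, had 2 tags in GC-1spg (0.394 TPM) against 81 in GC-2spd (ts) (17.1 TPM). Nearly the whole count thus came from the GC-2spd (ts) library. The ratio was 43.5-fold, a log2 ratio of 5.44 with an exact 95% interval of 3.54 to 8.51, at an FDR of 5.57e-22. The interval is wide because it rests on 2 tags in GC-1spg. With a sense match taken before an antisense match, *Igf1* had 4 and 84 tags, and the ratio was 22.5-fold (log2 ratio 4.49, 3.08 to 6.40) and still called.

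The *Igf1* tags came from 5 places, and 2 of them start at the same CATG and run over a splice junction. They are shown with the bases of the following exon in capitals, since these bases tell the transcripts apart.
*Igf1*, junction to the exon at chr10:87930675: catgcccaagactcagaagGA
*Igf1*, junction to the exon at chr10:87915298: catgcccaagactcagaagTC
The first 19 bases cover chr10:87913782-87913800 on the plus strand in both. The choice between these exons sets the E peptide at the carboxy end of the IGF-1 precursor. The first junction occurs in 4 of 8 annotated *Igf1* transcripts and the second in the other 4. In GC-2spd (ts) the first had 38 copies and the second 7, so that 84.4% of 45 junction tags (exact 95% interval 70.5 to 93.5) carried the first. Neither was listed in GC-1spg. The 2 copies of GC-1spg belonged to a site in the 3′ UTR at chr10:87931059-87931079, which had 29 copies in GC-2spd (ts).

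*Igf2* encodes the fetal ligand and is imprinted next to *H19*. Its gene spans chr7:142650766-142666816 on the minus strand, and the same strand carries *Gm49394*, a protein-coding gene model at chr7:142650769-142669942. The 2 models share exons, and of 15 reference tags of *Igf2* only 1 belonged to it alone, which had no copy in either library. The tag at its last CATG, 64 bases before the annotated end, had 107 copies in GC-1spg, while GC-2spd (ts) listed none. Counted for *Igf2*, a choice made after seeing the data, it gave 21.1 TPM against no listed tag, lower in GC-2spd (ts) by at least 21-fold at an FDR of 4.79e-30, where 7.85% of all genes were called lower. The bound is set against 4.74 tags, the one-sided 95% Poisson limit with 1 unlisted copy allowed for the tag. The tag cannot be divided between the gene models.

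The ligand tags thus lay in opposite libraries, with *Igf1* in GC-2spd (ts) and the tag shared by *Igf2* and *Gm49394* in GC-1spg. Of the imprinted or antisense neighbours, *H19* had 6 tags in GC-1spg against 2 in GC-2spd (ts), *Airn*, the antisense RNA at *Igf2r*, had 16 and 4, and *Igf2os* was unlisted. Neither difference was called. Their log2 ratios were -1.48 (exact 95% interval -4.82 to 1.0) and -1.90 (-3.94 to -0.27), respectively.

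*Igf1r*, the signalling receptor, had 170 tags in GC-1spg (33.5 TPM) against 197 in GC-2spd (ts) (41.7 TPM). The libraries differed little, at a log2 ratio of 0.31 (0.01 to 0.62) and an FDR of 0.0815. *Igf2r* had 184 tags (36.3 TPM) and 190 tags (40.2 TPM). Its log2 ratio was 0.15 (-0.15 to 0.45) at an FDR of 0.452, and it turned to -0.03 under TMM scaling. Both intervals lie inside a 2-fold difference in counting error, and within a library the receptors had nearly the same number of tags.

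**Figure D2:**
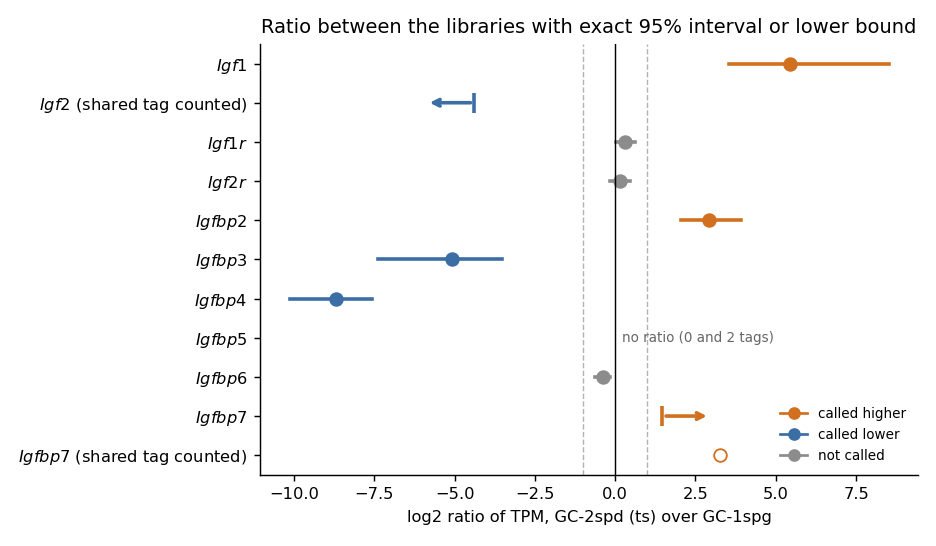
Ratio of TPM between the libraries on a log2 axis, with positive values higher in GC-2spd (ts); lines are exact 95% intervals of counting error, ticks with arrows are lower bounds where 1 library had no listed tag, and dashed lines mark the 2-fold threshold. *Igf1*, *Igfbp2* and *Igfbp7* lie to the right, *Igfbp3*, *Igfbp4* and the shared *Igf2* tag to the left, and *Igf1r*, *Igf2r* and *Igfbp6* between the thresholds.

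Although the *Igf1r* totals were close, its tags were spread differently over 11 CATG sites. The last site, 14 bases before the end of the annotated transcript, gave 84 of the GC-1spg tags and 137 of the GC-2spd (ts) tags. This was 49.4% (41.7 to 57.2) and 69.5% (62.6 to 75.9) of the *Igf1r* tags, and the exact 95% intervals did not overlap. A site 7003 bases before the end, at the start of the long 3′ UTR, gave 50 and 19 tags, or 29.4% (22.7 to 36.9) and 9.64% (5.91 to 14.7). The other 9 sites together gave 21.2% (15.3 to 28.1) and 20.8% (15.4 to 27.2), nearly equal shares. The early site was singled out after its values were seen. These intervals cover counting error alone. Site shares were not compared over all genes, so how common such a difference is between these libraries was not tested.

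The 495 bases between the early *Igf1r* tag and the next CATG held neither AATAAA nor ATTAAA, the common polyadenylation signals, on the sense strand. AATAAA was found in 16% of windows of this length behind the CATG sites of protein-coding transcripts. Those windows were not stopped at the next CATG. Most of them thus lacked AATAAA, and no share was computed for ATTAAA. Whether transcripts end behind the early site was not tested. Counted at the last site only, the *Igf1r* log2 ratio was 0.81, still not called. *Igf2r* showed no such difference, with 62.5% (55.1 to 69.5) of its tags at the last site in GC-1spg and 65.8% (58.6 to 72.5) in GC-2spd (ts), over 19 sites.

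**Figure D3:**
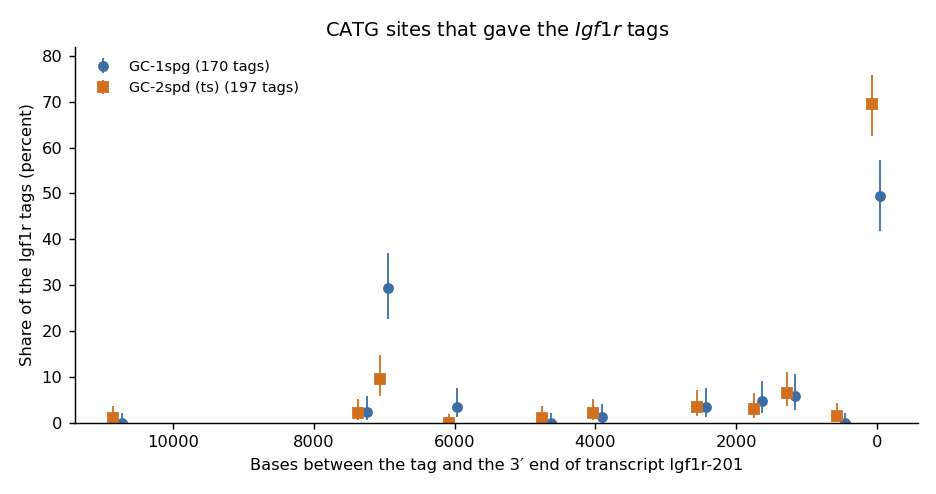
Share of the *Igf1r* tags at each of its 11 CATG sites against the distance of the tag from the 3′ end of the transcript in bases, with circles for GC-1spg, squares for GC-2spd (ts) and exact 95% binomial intervals; points are moved slightly sideways. The last site holds 49.4% and 69.5% of the tags, and the site 7003 bases from the end 29.4% and 9.64%.

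*Igfbp4*, which binds both ligands and is cleaved by the protease PAPP-A, had 2645 tags in GC-1spg (521 TPM) against 6 in GC-2spd (ts) (1.27 TPM). It was the most abundant of the 10 genes in GC-1spg, and among the least in GC-2spd (ts). The ratio was 411-fold, a log2 ratio of -8.68 (-10.13 to -7.56). Of the GC-1spg tags 94.2% (93.2 to 95) came from 1 site, 1946 bases before the end of the annotated transcript that holds it and not its last CATG, and all 6 copies of GC-2spd (ts) came from it as well. The 730 bases from the main site to the next CATG held neither AATAAA nor ATTAAA, where 22.3% of windows of that length held AATAAA. Most such windows thus lacked it, and whether transcripts end there was not tested. A further 5 tags at *Igfbp4*, with 9861 and 5592 copies, matched at least 2 other genes and were not counted.

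*Igfbp3*, the main carrier of IGF in serum, had 110 tags in GC-1spg (21.7 TPM) against 3 in GC-2spd (ts) (0.635 TPM). It stood with *Igfbp4* on the GC-1spg side. The ratio was 34.2-fold, a log2 ratio of -5.09 (-7.39 to -3.51) at an FDR of 1.63e-26. All 3 copies of GC-2spd (ts) and 108 of the 110 of GC-1spg were the tag in the last exon.

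*Igfbp2*, which prefers IGF-2 and can bind integrins through an RGD motif, had 12 tags in GC-1spg (2.37 TPM) against 85 in GC-2spd (ts) (18 TPM). It was higher in GC-2spd (ts) by 7.6-fold, a log2 ratio of 2.93 (2.05 to 3.93) at an FDR of 6.82e-15. *Igfbp6*, which binds IGF-2 far more tightly than IGF-1, had 383 tags (75.5 TPM) and 272 tags (57.5 TPM). It was abundant in both libraries and was not called, at a log2 ratio of -0.39 (-0.62 to -0.16) and an FDR of 0.00169. *Igfbp5*, the most conserved of the binding proteins, had no listed tag in GC-1spg against 2 in GC-2spd (ts), too few for a ratio, although all of its 20 reference tags were its own.

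*Igfbp7* encodes a relative of the binding proteins with low affinity for the ligands. By tags of its own it had none listed in GC-1spg against 20 in GC-2spd (ts) (4.23 TPM), at least 2.77-fold higher at an FDR of 4.1e-06. Of these, 14 were the tag shown above as its own. The bound is set against 7.75 tags, the limit with 1 unlisted copy for each of its 3 tags.

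Most sense tags that match *Igfbp7* were not in that count. The gene spans chr5:77349240-77408041 on the minus strand and its end overlaps that of *Polr2b*, a subunit of RNA polymerase II, at chr5:77310147-77349324 on the plus strand. The tag at the last CATG of *Igfbp7*, 18 bases before its end, is therefore also an antisense tag of *Polr2b* and belonged to no single gene. With its variants of 1 mismatch it had 476 GC-1spg copies and 4269 GC-2spd (ts) copies. With a sense match taken before an antisense match, *Igfbp7* had 476 tags (93.8 TPM) and 4289 tags (907 TPM), and the log2 ratio was 3.27 (3.14 to 3.41), where 11.6% of all genes were called higher. The direction was thus the same by both counts, whereas the level in GC-2spd (ts) was 4.23 TPM by one and 907 TPM by the other.

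The 6 binding protein genes together had 3150 tags in GC-1spg (621 TPM) against 388 in GC-2spd (ts) (82.1 TPM), a log2 ratio of -2.92 (-3.08 to -2.77). With a sense match taken first the sums were 3626 and 4657 tags (715 and 985 TPM), and the log2 ratio turned to 0.46 (0.40 to 0.53). Without *Igfbp7* it was -3.00 (-3.16 to -2.84) by both counts. The direction of the sum was thus set by where the shared *Igfbp7* tag was placed.

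The make-up of the binding protein tags differed between the libraries under both counts. In GC-1spg *Igfbp4* made up 84% (82.6 to 85.2) of the tags of 1 gene only and *Igfbp6* 12.2% (11 to 13.4). In GC-2spd (ts) *Igfbp6* made up 70.1% (65.3 to 74.6), *Igfbp2* 21.9% (17.9 to 26.4) and *Igfbp7* 5.15% (3.18 to 7.85). With a sense match first, *Igfbp4* still led in GC-1spg with 72.9% (71.5 to 74.4), whereas *Igfbp7* led in GC-2spd (ts) with 92.1% (91.3 to 92.9). *Igfbp4* was 1.55% (0.57 to 3.34) of the GC-2spd (ts) tags by the first count and 0.129% (0.0473 to 0.28) by the second.

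**Figure D4:**
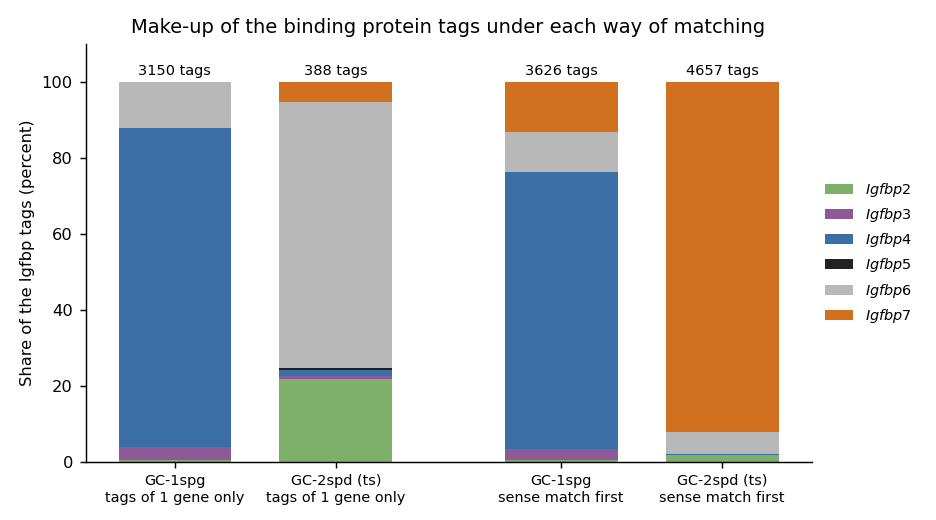
Share of each *Igfbp* gene in the tags of all 6 in percent, by library, for tags of 1 gene only (left pair) and with a sense match taken before an antisense match (right pair); the number of tags stands above each bar. *Igfbp4* fills 84% of the first bar, *Igfbp6* 70.1% of the second and *Igfbp7* 92.1% of the last.

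Around these genes, a list of 56 genes of IGF supply and signalling, with the 3 neighbours above among them, was described, of which 45 had a tag and 11 did not. Of the 45, 7 were called higher and 5 lower in GC-2spd (ts), against 11.7% and 7.84% of all genes, and 33 were not called. With 0.5 tags added to both counts, the median log2 ratio of the 45 genes was 0.21, with 0.13 over all genes tested. With an assumed BCV of 0.2, 2 of the list were called higher and 0 lower. At that setting 511 of all 14450 genes were called higher and 489 lower.

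Among 12 genes grouped under ligand bioavailability, 6 were listed, 4 of them called higher and none lower, where 11.7% and 7.84% of all genes were. *Htra1* had 1210 and 797 tags (log2 ratio -0.50, -0.63 to -0.37) and *Adam9* had 355 and 455 (0.46, 0.26 to 0.66), and neither was called. *Adam12*, a protease that cleaves binding proteins, had no listed tag in GC-1spg against 71 in GC-2spd (ts) (15 TPM), at least 9.83-fold higher. *Stc2*, an inhibitor of PAPP-A, had 9 and 43 tags (log2 ratio 2.36, 1.30 to 3.58). *Lrp1*, an endocytic receptor, had 321 and 1074 tags (1.84, 1.66 to 2.03). *Tmem219*, described as a receptor for IGFBP-3, had 31 and 66 tags (1.19, 0.56 to 1.86), and its call was lost under TMM scaling. *Igfals*, *Igfbp1*, *Igfbpl1*, *Pappa*, *Pappa2* and *Stc1* were unlisted in both.

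The 5 genes of insulin and related receptors included 2 with tags, neither of them called. *Insr*, the insulin receptor, had 83 and 86 tags (log2 ratio 0.15, -0.30 to 0.61). It was thus listed at 16.4 and 18.2 TPM, below *Igf1r* in both libraries. *M6pr*, the smaller mannose 6-phosphate receptor, had 131 and 182 tags (0.58, 0.24 to 0.91).

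Of 10 adaptor genes 9 were listed. *Grb10*, an imprinted adaptor that restrains IGF1R and insulin receptor signalling, fell from 237 to 62 tags (log2 ratio -1.83, -2.26 to -1.42) at an FDR of 9.96e-22. *Sos2*, an exchange factor for Ras, had 22 and 61 tags (1.57, 0.85 to 2.35). *Irs2* had 135 and 129 tags and was not called, and *Irs1* had 3 and 3 tags of its own, but 77 and 106 with a sense match taken first.

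All 23 genes of PI3K, Akt and mTOR were listed, 2 called higher, 3 lower and 18 neither, where 11.7% and 7.84% of all genes were called higher and lower. *Pdpk1*, the kinase that activates Akt, had 18 and 53 tags (log2 ratio 1.66, 0.86 to 2.52), and *Tsc2*, an inhibitor of mTORC1, had 246 and 517 (1.17, 0.95 to 1.40), a call that was lost under TMM scaling. *Akt2* had 372 and 166 tags (-1.06, -1.34 to -0.79), *Inppl1*, the phosphatase SHIP2, had 435 and 189 (-1.10, -1.35 to -0.85), and *Rictor*, a subunit of mTORC2, had 85 and 38 (-1.06, -1.65 to -0.49). These 5 ratios lay close to the 2-fold threshold, apart from that of *Pdpk1*. *Akt1* was the most abundant Akt gene, with 922 and 833 tags, and did not pass the thresholds (-0.04, -0.18 to 0.09).

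Of 3 genes whose proteins bind *Igf2* mRNA, *Igf2bp1* had 221 and 77 tags (log2 ratio -1.42, -1.81 to -1.04) and was called lower. *Igf2bp2* had 174 and 96 tags and *Igf2bp3* had 25 and 36, and neither was called. With a sense match taken first, *Igf2bp3* had 61 and 136 tags and was called higher.

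**Figure D5:**
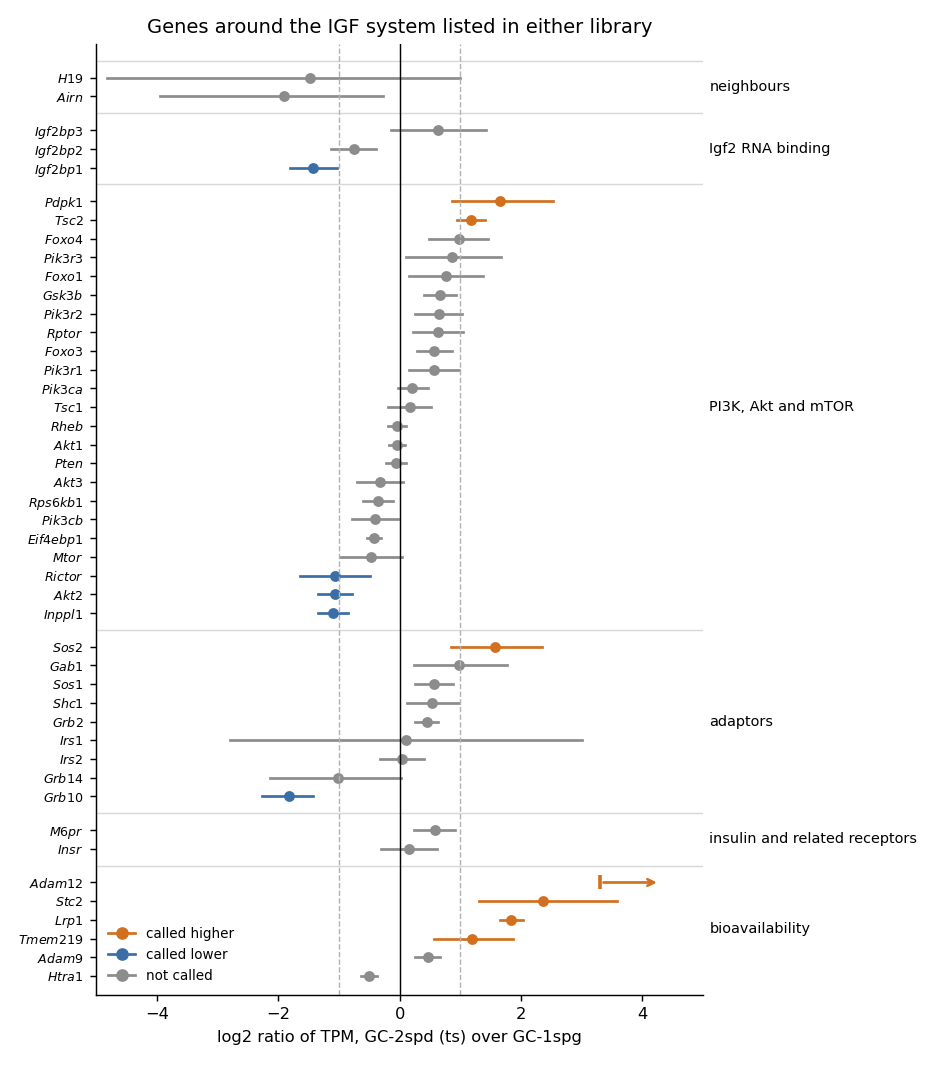
Ratio of TPM between the libraries on a log2 axis for the listed genes around the IGF system and for *H19* and *Airn*, by role, with exact 95% intervals of counting error and a lower bound for *Adam12*; dashed lines mark the 2-fold threshold. Called genes lie outside the dashed lines, 7 to the right and 5 to the left.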

How the data were processed

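Total RNA of each line was profiled in 1 library by DGE on the Illumina platform. After dropping adaptors, tags of poor quality and tags seen once, the authors deposited every other tag with its raw count. Their deposited TPM, which is that count over the library total, was recomputed here. No matching program is named in the sources used here.

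All CATG tags of the transcripts of GENCODE M21 (GRCm38), 573182 on the sense strand, were taken as the reference, and clean tags were matched allowing 1 mismatch behind the CATG, with exact matches preferred. A tag counted for a gene when its best matches, sense and antisense, belonged to that gene alone. Counts were scaled to all clean tags of the library. Ratios carry exact conditional binomial (Clopper-Pearson) 95% intervals, and a gene at 0 was set against a one-sided 95% Poisson limit. They cover counting error alone, since each line has 1 library. PCR copies of a molecule are counted each time, which these intervals and limits do not allow for. edgeR's quasi-likelihood test needs replicates and could not be fitted. Calling was tested on simulated data with counting noise only, in which 81.5% of 200 genes changed 4-fold were recovered among 14243 genes, with 0 false calls. The changed genes were drawn from those above a minimum number of tags, so the share does not cover genes with few tags. The simulated noise was that which the test assumes, so it does not measure false calls between cultures.

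The members, lists and tests were chosen with earlier results of these data known. The text names all 10 members, every called gene of the pathway list and the neighbours of *Igf2* and *Igf2r*. *Gm49394*, *Polr2b*, *Htra1*, *Adam9*, *Insr*, *M6pr*, *Irs1*, *Irs2*, *Akt1*, *Igf2bp2*, *Igf2bp3*, *Igfbp1* and its fellow unlisted genes, and the markers named were added after their values were seen. Alternatives were exact matching, the last CATG only, the longest transcript only, no pseudogenes, sense matches before antisense, both strands summed, TMM scaling, scaling to unambiguous sense tags, at least 10 tags, 0.5 tags added, and the exact test of edgeR at an assumed biological coefficient of variation (BCV) of 0.1, 0.2 or 0.4. Counting the *Igf2* tag shared with *Gm49394* was added after seeing the data. R 4.3.3, edgeR 4.0.16, Python 3.11.15, numpy 2.4.6, scipy 1.17.1, pandas 2.3.3 and matplotlib 3.10.9 were used.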

Additional observations from a re-analysis of the deposited data

Results flagged for a closer look

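The comparisons counted sense tags of 1 gene only, and several members had further tags outside that count. Antisense tags were listed for *Igf1* in GC-2spd (ts) with 27 copies and in GC-1spg with none, for *Igf1r* with 34 copies in GC-1spg against 46 in GC-2spd (ts), for *Igfbp3* with 10 copies in GC-1spg and for *Igfbp4* with 451 copies in GC-1spg. Of the *Igfbp4* copies 418 began at the same CATG as its main sense tag. The 27 antisense copies of *Igf1* lay in the 3′ UTR of 1 annotated transcript. Over 11 pairs of a site and a library with at least 50 sense copies and a tag of 1 gene, the opposite strand of the same CATG gave 0 to 16.9 copies per 100 sense copies, with a median of 6.48, and 6 of the pairs had any.

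The tag that *Igf2* shares with *Gm49394* had 107 copies in GC-1spg, while GC-2spd (ts) listed none. The tags that *Igfbp7* shares with *Polr2b* had 476 copies in GC-1spg against 4269 in GC-2spd (ts). By tags of its own *Polr2b* had 32 and 26 sense copies and 24 and 20 antisense copies, GC-1spg first. With a sense match taken before an antisense match *Polr2b* had 799 and 536 tags. The *Polr2b* sense tag that begins at the CATG of the shared tag had 767 and 508 copies. The shared tag itself, without variants, had 474 and 4163. Which gene the shared copies came from was not tested.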

How the results depend on the processing

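*Igf1r*, *Igfbp3*, *Igfbp4* and *Igfbp6* kept their direction and their side of the thresholds in all 14 alternatives. *Igf1* was called at a log2 ratio of 4.49 with sense before antisense. *Igf2r*, which was not called, turned to -0.03 under TMM scaling. With an assumed BCV of 0.4, *Igf1* (log2 ratio 5.44), *Igfbp2* (2.93) and *Igfbp7* (log2 of its bound 1.47) were no longer called, because the assumed spread was larger. *Igf2* had 107 tags in GC-1spg when the tag shared with *Gm49394* was counted for it, and was then called lower. *Igfbp7* has no tag of its own at its last CATG and *Igfbp5* is below 10 tags, so those alternatives gave no value. The log2 ratio of the summed *Igfbp* tags was -0.70 at the last CATG only, where the main *Igfbp4* tag is left out, 0.46 with sense before antisense, -3.11 with both strands and -3.09 under TMM scaling. The share of *Igfbp7* tags at its own most used site in GC-2spd (ts) fell from 70% to 0.326% with sense before antisense. With an assumed BCV of 0.2 and 0.4, 511 and 108 genes were called higher and 489 and 136 lower, and of the pathway genes 2 and 1 higher and 0 and 0 lower, because the assumed spread was larger. No paired analysis was possible because each cell line has 1 library. Depth limits *Igf1*, *Igfbp3* and *Igfbp4*, which rest on 2, 3 and 6 tags in the lower library.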
